A study of Arabis alpina with 19 samples.

Results

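A set of 93 transcripts had the highest group mean in the internode closest to the inflorescence of Arabis alpina lateral stems. In group means, though not in every single library, they showed a step down to all other stem samples. They were drawn from the 30158 targets, the transcript models used for quantification, of a deposited series table of TPM, the length-scaled transcript abundance scaled to a fixed total per library. For each target the 6 group means were put on the log2(TPM + 1) scale and sorted. A target was taken where the largest difference between neighbouring means, called the gap here, was at least 1, where exactly the group near the inflorescence lay above it, and where the mean of that group was at least 5 TPM. The rule allowed up to 150 targets, and 93 met it, or 0.308% of the table, so all were kept.

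The plants all carried the same genotype, perpetual flowering 1-1 (pep1-1), and no other genotype was sampled. They were grown in soil under long days, and every library was a biological replicate of 12 plants, per the labels. Lateral stems from the first and the second node of the main axis were sampled as whole internodes. The first internode of the perennial zone (PZ) gave 4 groups of 3 libraries by age, I_PZ at 4 weeks, II_PZ at 5 weeks, III_PZ at 7 weeks and finally IV_PZ at 30 weeks. Plants of 30 weeks also gave both samples of the annual zone (AZ), namely a short internode with 4 libraries (IV_AZ_si) and, with 3 libraries, the internode next to the inflorescence (IV_AZ_if). Each library thus mixes all tissues of an internode, so fewer cells of a type and less RNA per cell cannot be told apart.

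Arabis alpina is a perennial relative of Arabidopsis thaliana. PEP1 is its orthologue of the Arabidopsis floral repressor FLC, and pep1 mutants flower without a cold period. In this species the upper part of a flowering lateral stem dies back after seed set and is called the annual zone. The basal part persists, thickens by secondary growth from a cambium and stores reserves, and is called the perennial zone. An internode below an inflorescence is generally the youngest part of such a stem, where elongation and primary tissues precede secondary thickening.

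Gene names or Arabidopsis loci are not paired with the identifiers in the files. The members are therefore given by identifier, without roles, and the tissue labels could not be checked against marker genes. The name of the set as specific to the internode holds only in the sense of the gap: all but 2 of the 93 members had a count in at least 1 library of another group, and 21 had a second-highest group mean of at least 10 TPM.

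Libraries held between 21032841 and 27999048 estimated counts. The rule took the I_PZ mean from replicates 1 and 2, because replicate 3 had been found to carry transcripts of III_PZ. The members themselves showed no upward shift in that library. Replicate 3 was above both other I_PZ libraries for 26 members, between them for 35 and below both for 32, whereas over the 24936 table targets with a value in I_PZ it was above both for 45.2%. The members summed to a mean of 694 TPM in I_PZ and 453 TPM in III_PZ, so III_PZ transcripts need not raise them. The comparison therefore cannot show whether replicate 3 is free of such transcripts for the members. The 3 members with the highest level in that library were Aa_G648160.h1 with 113 TPM, Aa_G88980.h1 with 58.7 TPM and Aa_G100610.h1 with 50.2 TPM. Their replicates 1 and 2 were at 113 and 114 TPM, at 68.7 and 69.2 TPM, and at 55.8 and 49.5 TPM.

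A second library needs naming before the results. III_PZ replicate 1 was at least 5 times above both other III_PZ libraries, with more than 3 counts, for 7 of the 93 members (7.53%), against 0.869% of all table targets. Replicates 2 and 3 of III_PZ each stood out in this way for 1 member. The 7 were Aa_G106350.h1, Aa_G514000.h1, Aa_G24320.h1, Aa_G716910.h1, Aa_G191150.h1, Aa_G188900.h1 and Aa_G337590.h1. In replicate 1 they reached 1.43% to 22.8% of their IV_AZ_if mean. For the comparisons with III_PZ, the numbers of members called are also given without this library. Most other results that use III_PZ are given only with it. Why replicate 1 differs was not tested.

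The values that chose the members are described here without a test. The gap ranged from 1.02 to 6.37 with a median of 1.60. A gap of at least 2 was seen for 30 members and a gap of at least 3 for 9. The IV_AZ_if mean ranged from 5.07 to 449 TPM with a median of 13.2 TPM, and 10 members reached 100 TPM. The next highest group mean ran from 0 to 123 TPM with a median of 4.19 TPM, so that the ratio of the top to the next mean, where the next was above 0, had a highest value of 174.

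In most members the next highest level was not in the other annual sample. That place was held by I_PZ for 37 members and by IV_AZ_si for 29. It was held by II_PZ for 17, by III_PZ for 8 and by IV_PZ for 2. I_PZ alone thus came next for more members than IV_AZ_si, the annual internode of the same age as IV_AZ_if. The perennial zone has 4 groups, whereas IV_AZ_si is the only other annual group. No share over all table targets was taken, so nothing further is read from this order.

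The bottom of the order was most often the oldest perennial internode. IV_PZ alone had the lowest of the 6 means for 47 members and III_PZ for 14, while 20 members had a tie for the lowest. No count was seen in any IV_PZ library for 31 members. The same held for 11 members in III_PZ, 9 in I_PZ, 8 in IV_AZ_si and 7 in II_PZ. Over all targets, too, the IV_PZ libraries held counts for the fewest, 23259 to 23510, against 23837 to 25054 in the other libraries. Shares of all targets lowest in IV_PZ or without a count there were not taken.

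**Figure D1:**
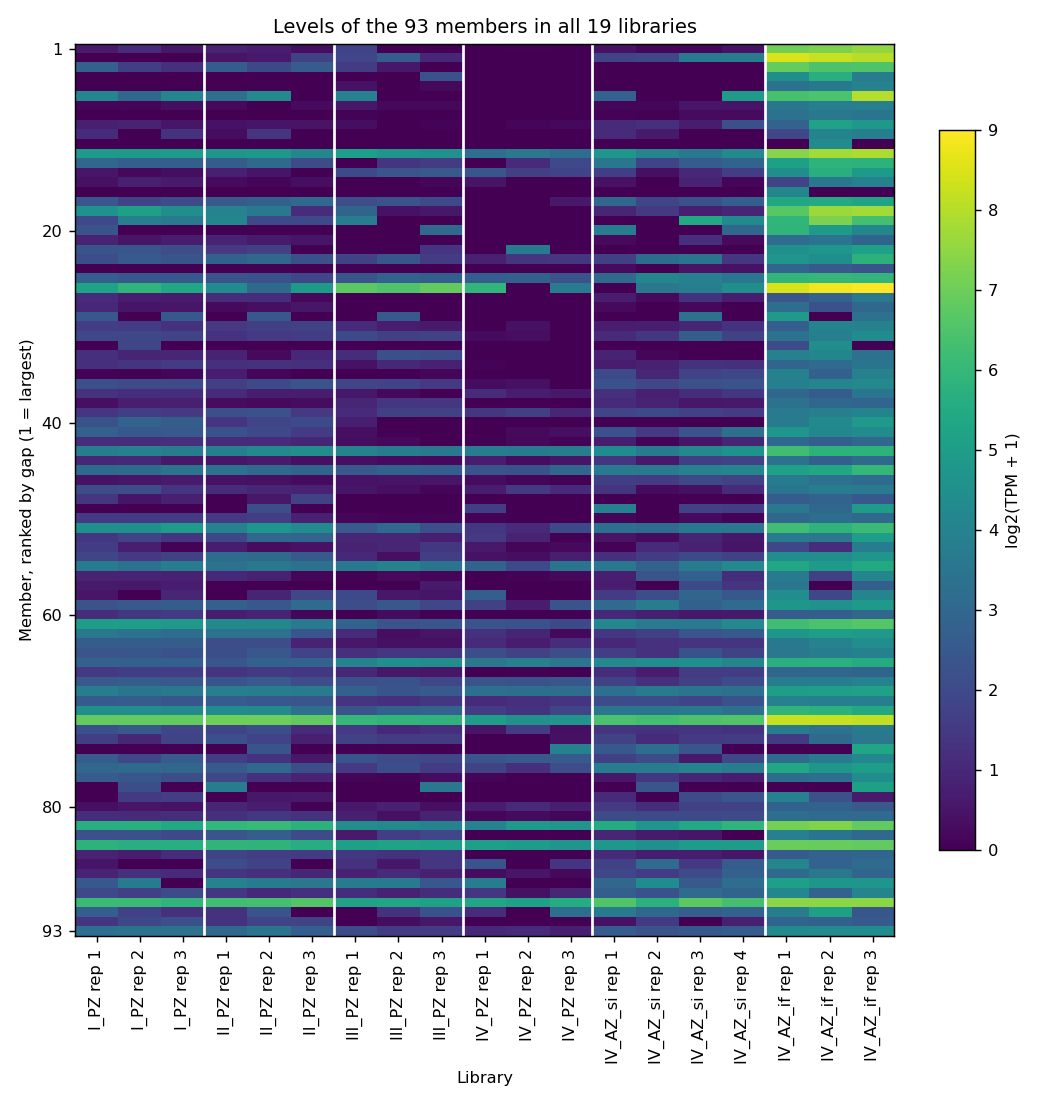
Levels of the 93 members, with 1 row per member ranked by gap from the largest at the top, 1 column per library grouped by stage, and colour giving log2(TPM + 1). The 3 IV_AZ_if columns are the brightest for most rows, the IV_PZ columns are the darkest for 47 members, and the lower rows keep visible levels in I_PZ and II_PZ.

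The largest gap, 6.37, belonged to Aa_G106350.h1. It stood at 132, 150 and 184 TPM in the 3 IV_AZ_if libraries. Levels elsewhere were at most 2.59 TPM, in III_PZ replicate 1, and the other III_PZ libraries were at 0.0160 and 0 TPM. The libraries of I_PZ held 0.572, 1.21 and 0.497 TPM and those of II_PZ 0.810, 0.611 and 0.266 TPM. The other 30-week groups held 0, 0.0402 and 0 TPM in IV_PZ and 0.344, 0.109, 0.121 and 0.359 TPM in IV_AZ_si. This member rested on 31872 counts in IV_AZ_if, so the separation from the other 16 libraries is not limited by depth.

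Aa_G635340.h1, with a gap of 5.18, was at 356, 305 and 263 TPM in IV_AZ_if. Its next group was IV_AZ_si, at 2.55, 2.80, 12.0 and 12.9 TPM, and III_PZ followed at 2.67, 5.20 and 1.00 TPM. It had no count in I_PZ or IV_PZ. This target shares reads with another, meaning that some of its estimated counts were not whole numbers, so its level depends on how reads were divided.

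Aa_G451470.h1 had a different distribution. It was at 118, 88.4 and 91.8 TPM in IV_AZ_if and had no count in any of the 4 IV_AZ_si and 3 IV_PZ libraries, both of the same age. In the young perennial zone it was present, at 5.81, 2.21 and 1.38 TPM in I_PZ and at 5.19, 2.88 and 4.95 TPM in II_PZ. III_PZ held 1.94, 0.488 and 0 TPM. The member was thus shared by the internode near the inflorescence and, far lower, by young perennial internodes.

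Aa_G288440.h1 and Aa_G507850.h1 were among the members closest to absent elsewhere. Aa_G288440.h1 was at 9.54, 11.5 and 14.9 TPM in IV_AZ_if, and its highest value in any other library was 0.363 TPM, in III_PZ replicate 1. Aa_G507850.h1 was at 9.14, 11.2 and 10.2 TPM, and its highest value elsewhere was 0.199 TPM, in IV_AZ_si replicate 3. Neither had a count in I_PZ or IV_PZ.

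Aa_G629580.h1, which shares reads, was at 10.7, 13.5 and 13.5 TPM in IV_AZ_if. It had low values in most other libraries, up to 0.493 TPM, and none in IV_PZ. Aa_G514000.h1 was more uneven. It stood at 83.0, 86.4 and 252 TPM in IV_AZ_if, at 16.3, 7.32 and 16.7 TPM in I_PZ and at 8.99, 18.8 and 0 TPM in II_PZ. In the other groups it had values in single libraries, 14.7 TPM in III_PZ replicate 1 and 6.06 and 29.5 TPM in IV_AZ_si replicates 1 and 4, with 0 in the rest. The lowest IV_AZ_if library was still above all others.

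**Figure D2:**
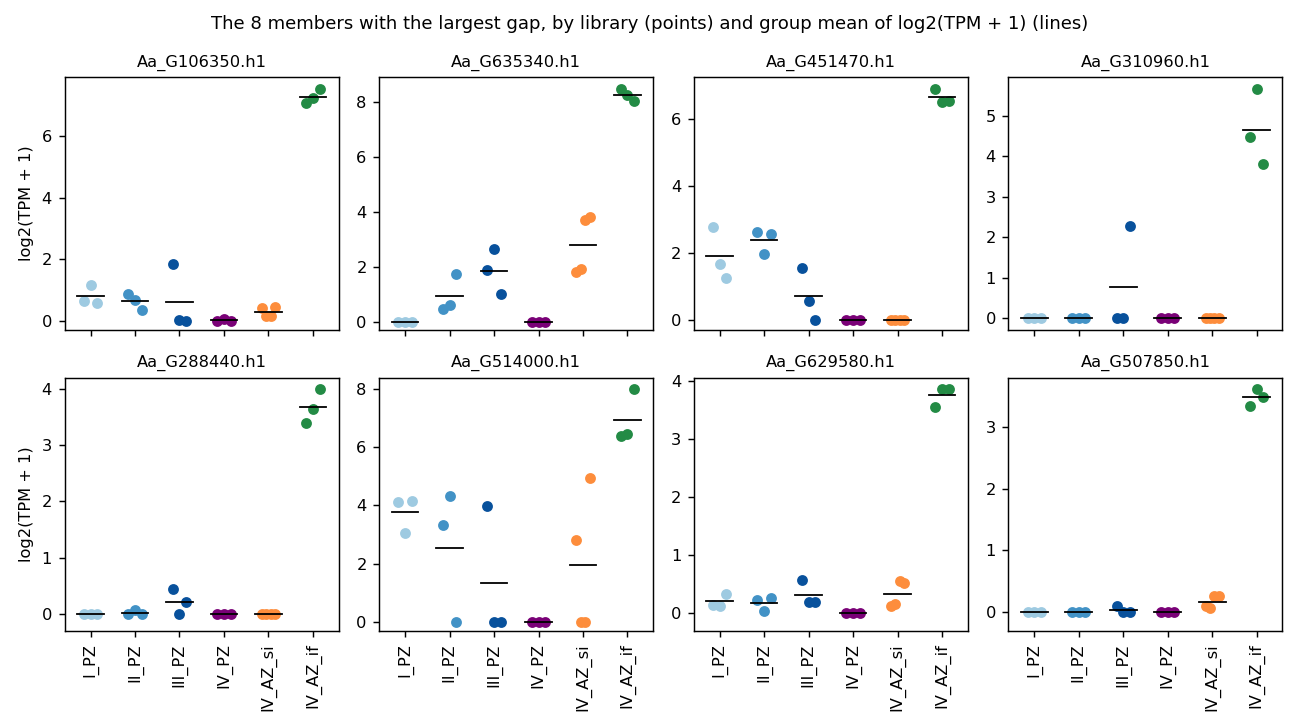
The 8 members with the largest gap, with 1 point per library, the group on the horizontal axis, log2(TPM + 1) on the vertical axis and a line at each group's mean on that scale. In each panel all 3 IV_AZ_if points lie above all points of the other groups, and Aa_G106350.h1 and Aa_G635340.h1 show the widest distance.

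The highest levels were not always found at the largest gaps. Aa_G173260.h1 had the highest IV_AZ_if mean, 449 ± 96.0 TPM (SD, n = 3), from 349, 458 and 540 TPM. It is short, with 171 bases, so that 1 count was worth 2.59 TPM and the mean rests on 524 counts, against 38554 for Aa_G648160.h1. Its next group was III_PZ, at 106, 90.4 and 113 TPM. IV_PZ spread from 0 to 59.8 TPM and IV_AZ_si from 0 to 21.1 TPM, on at most 25 counts a library in both groups.

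Aa_G648160.h1 was at 301, 305 and 289 TPM in IV_AZ_if and remained abundant in every group. II_PZ, the next, held 129, 128 and 112 TPM. III_PZ held 62.2, 58.7 and 57.2 TPM and IV_PZ 31.4, 22.4 and 24.6 TPM. I_PZ, at 113, 114 and 113 TPM, overlapped II_PZ, whereas II_PZ, III_PZ and IV_PZ did not overlap, each older group being lower.

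Aa_G501340.h1 was at 166, 212 and 237 TPM in IV_AZ_if and between 8.64 and 32.9 TPM in the other 16 libraries. Aa_G88980.h1 was at 173, 171 and 174 TPM, and its next groups were II_PZ with 75.3, 80.3 and 95.8 TPM and IV_AZ_si with 93.8, 53.1, 104 and 80.6 TPM. Aa_G24320.h1 was at 100, 199 and 213 TPM in IV_AZ_if and at 22.4, 33.6 and 20.9 TPM in I_PZ. It was at 14.9, 11.3 and 1.19 TPM in II_PZ, at 6.38, 0.368 and 0.481 TPM in III_PZ, and at 0.940, 1.79, 0.694 and 0.917 TPM in IV_AZ_si. Of these abundant members, Aa_G24320.h1 and Aa_G635340.h1 had no count in IV_PZ.

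At the limit of the gap, the members just inside were Aa_G103400.h1 with 1.02, Aa_G298500.h1 with 1.03 and Aa_G34230.h1 with 1.03. The targets just outside were Aa_G296090.h1 with 0.989, Aa_G57510.h1 with 0.976 and Aa_G152760.h1 with 0.972. At the limit of the level, Aa_G100000.h1, Aa_G277850.h1 and Aa_G380730.h1 were inside with 5.07, 5.19 and 5.36 TPM. Aa_G9430.h1, Aa_G242730.h1 and Aa_G122980.h1 were outside with 4.95, 4.78 and 4.51 TPM. Values on both sides of each limit were close to each other.

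The rule compares means, and the members differed in how well single libraries bore them out. In 77 of the 93 members the lowest IV_AZ_if library was above all 16 other libraries. The same held for 3.78% of all table targets, a share from which nothing is read because the rule used this contrast. Among the 84 members with at least 30 counts over the 3 IV_AZ_if libraries it held for 75, and among the 9 with fewer counts for 2. Aa_G34230.h1 is an example of overlap, with 12.8, 33.5 and 4.32 TPM in IV_AZ_if against 12.1, 7.17, 5.56 and 6.13 TPM in IV_AZ_si.

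To describe IV_AZ_if libraries that the choice did not use, the rule was repeated with each of them left out of its group mean. The other groups were still used, so the chosen targets were low there by the rule. Without replicate 1 it chose 106 targets, of which 82 were among the 93, and the left-out library was above all 16 others for 85 of the 106 and at 0 for 12. Without replicate 2 it chose 107 (85 shared), with the left-out library above all others for 82 and at 0 for 12. Without replicate 3 it chose 96 (80 shared), with 83 above all others and 11 at 0. No share over all table targets was taken for a left-out library, so nothing is read from the numbers above all others. In each case, 11 or 12 targets chosen on a pair of IV_AZ_if libraries therefore had no count in the remaining one.

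The spread among the IV_AZ_if libraries varied widely between members. The coefficient of variation over the 3 libraries ranged from 1.00% to 173% with a median of 22.8%, and was under 10% for 12 members and under 50% for 68. The steadiest members were Aa_G88980.h1 with 1.00%, Aa_G521430.h1 with 2.29% and Aa_G117120.h1 with 2.51%. Aa_G521430.h1 was at 59.3, 62.1 and 60.3 TPM in IV_AZ_if, against 7.67, 16.5, 14.2 and 10.6 TPM in its next group IV_AZ_si. Aa_G117120.h1 was at 6.72, 6.70 and 6.42 TPM, against 1.85, 2.18 and 2.14 TPM in I_PZ.

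At the other end, 4 members had a count in only 1 IV_AZ_if library and 7 had none in some IV_AZ_if library. Aa_G755050.h1, of 108 bases, had 4 counts in replicate 2, which amounted to 19.1 TPM, and none in the other 18 libraries. Aa_G310790.h1, of 111 bases, had 3 counts in replicate 1, or 16.7 TPM, and none elsewhere. These were the only 2 members without a count outside IV_AZ_if, and each rests on a single library. Aa_G510710.h1 was at 0, 0 and 38.9 TPM in IV_AZ_if and at 14.7 TPM in IV_PZ replicate 3.

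The 9 members under 30 counts were short, from 108 to 240 bases with a median of 138, against a median of 828 for the other 84. TPM divides by an effective length, and for such short targets a single count can be worth several TPM, so they can pass the level limit of 5 TPM on a few reads. One of them, Aa_G310960.h1, was among the members with the 10 largest gaps on 22 counts, with 21.3, 50.2 and 13 TPM in IV_AZ_if and a single other value of 3.86 TPM in III_PZ replicate 3. The median length of all 93 members was 663 bases, against 999 for the 18854 table targets with a group mean of at least 5 TPM. Of the members 20 (21.5%) were shorter than 300 bases, against 12.4% of those targets, and all 93 lengths were multiples of 3.

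**Figure D3:**
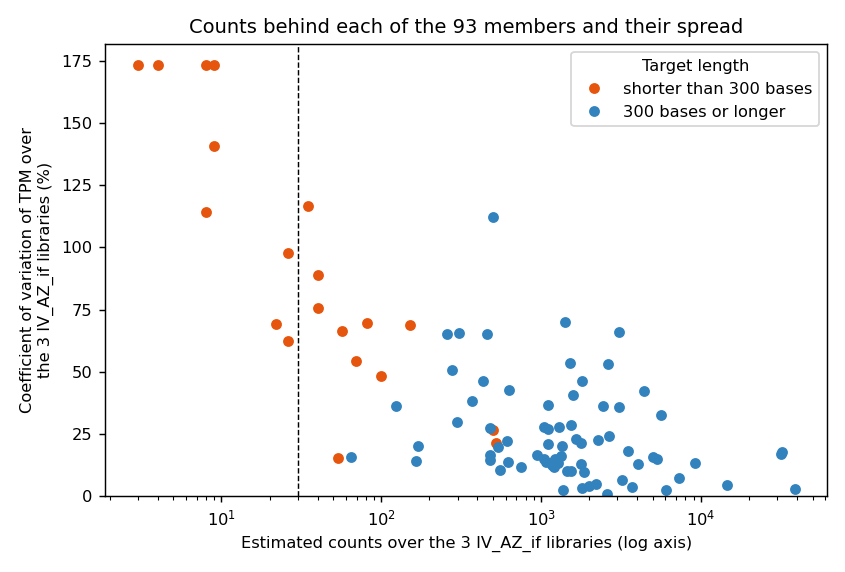
Estimated counts of each of the 93 members summed over the 3 IV_AZ_if libraries (horizontal log axis) against the coefficient of variation of TPM over these libraries in percent (vertical axis), with the colour giving the target length class and the dashed line marking 30 counts. The 9 members left of the line are short, and the members with the most counts have spreads mostly under 50%.

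Shared reads affected 14 members (15.1%), against 19% of the table targets with a group mean of at least 5 TPM. Besides the members marked elsewhere, they include Aa_G648160.h1, Aa_G117120.h1, Aa_G129400.h1, Aa_G370290.h1, Aa_G581100.h1 and Aa_G464390.h1. The levels and folds given for these also depend on how reads were divided. Some members lay side by side in the deposited library files, where 5 pairs of members occupied consecutive rows; the sources used here do not say whether this order follows the genome. The longest run was Aa_G356640.h1, Aa_G600900.h2 and Aa_G600910.h1, which all share reads. In IV_AZ_if they were at 6.16, 35.3 and 26.7 TPM, at 2.76, 15.9 and 13.9 TPM, and at 2.58, 11.2 and 14.5 TPM. All 3 were lowest in replicate 1. Each had a count that was not whole in some library, and whether they share reads with each other was not tested.

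Another neighbouring pair, Aa_G464390.h1 and Aa_G1060940.h1, had similar profiles. Aa_G464390.h1 was at 74.6, 57.0 and 68.4 TPM in IV_AZ_if and Aa_G1060940.h1 at 58.6, 52.8 and 43.5 TPM. Their IV_AZ_si means were 9.80 ± 1.70 and 10.4 ± 0.968 TPM (SD, n = 4) and their IV_PZ means 1.99 ± 1.01 and 2.05 ± 0.611 TPM (SD, n = 3). Aa_G103400.h1 and Aa_G103410.h1, also adjacent, differed more, with gaps of 1.02 and 2.78. These pairs were picked for their position, after their values were seen.

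Summed over the 93 members, TPM was 3550, 3853 and 4190 in the IV_AZ_if libraries, which is 0.386% ± 0.0320 (SD, n = 3) of the transcript pool. It was 697, 719 and 666 in I_PZ, 684, 700 and 580 in II_PZ and 478, 438 and 444 in III_PZ. The 30-week samples held 309, 226 and 267 in IV_PZ and 572, 470, 643 and 663 in IV_AZ_si. The height of IV_AZ_if in this sum was fixed by the rule. Among the other groups, each library of IV_PZ was below each of III_PZ, and each of III_PZ was below each of I_PZ and II_PZ, while IV_AZ_si overlapped III_PZ and II_PZ and lay below I_PZ. A few members weigh heavily in the sum. In each library outside IV_AZ_if, its 3 highest members made up 33.1% to 46.3% of it. The median TPM of the members, averaged over libraries, was 2.13 in I_PZ, 1.75 in II_PZ, 0.765 in III_PZ, 0.0833 in IV_PZ and 1.85 in IV_AZ_si.

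The number of members with a count was ordered in a similar way, with 88 to 90 in IV_AZ_if, 79 to 81 in I_PZ, 73 to 85 in II_PZ, 73 to 81 in IV_AZ_si, 68 to 73 in III_PZ and 48 to 52 in IV_PZ. The other members were not detectable at this depth in those IV_PZ libraries, which also held counts for the fewest of all targets, as given above.

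**Figure D4:**
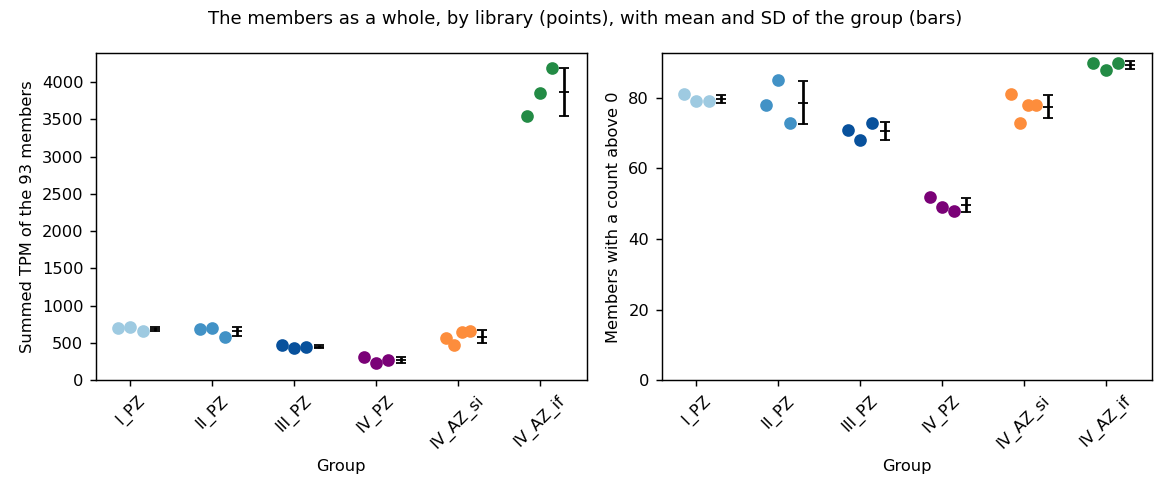
The members as a whole in each of the 6 groups, with the sum of their TPM (left) and the number of members with an estimated count above 0 (right), 1 point per library and bars for the mean and SD. IV_AZ_if stands at 3550 to 4190 TPM by construction of the set, and IV_PZ is lowest in both panels.

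The 4 comparisons that do not involve IV_AZ_if were tested with edgeR's quasi-likelihood test. Its p-values were adjusted (Benjamini-Hochberg) over the 23528 targets that passed a low-count filter. Of the 93 members 81 passed and 12 did not. The rule keeps the spread between neighbouring means of the other groups below the gap, and members could pass the filter through their IV_AZ_if counts, so counts of calls are read beside those of all tested targets. Shares of members are of the 81 tested. Calls were made below an adjusted p of 0.05.

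The first comparison asks how the 2 other 30-week internodes differ, the short annual internode IV_AZ_si and the perennial internode IV_PZ. Most members that changed were higher in the annual zone. Of the tested members 50 (61.7%) were called higher in IV_AZ_si, against 31.4% of all tested targets, and 3 (3.70%) were called lower, against 25.7%. In both directions 53 members (65.4%) and 57.1% of all tested targets were called. Some of the 81 passed the filter only with other groups included. Aa_G507850.h1, called higher, had at most 10 counts in any library outside IV_AZ_if. With only the 2 groups in the fit, 40 of 56 tested members were called higher, against 6580 of 22010 targets. In that fit 1 member (1.79%) was called lower, against 27.5%, and the median log2 fold change of its tested members was 1.99. The median log2 fold change of the 81 tested members was 2.12, or 2.01 with members at 0 in 1 group set to their lower bound and 5 at or under the floor of 3 counts in both groups left out, against 0.04 over all tested targets.

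Where a group had no count, folds are lower bounds set against a floor of 3 counts over that group. Aa_G635340.h1, with the IV_AZ_si values given above and no count in IV_PZ, was at least 44.9-fold higher (edgeR adjusted p = 0.000349). The bound is 29.5-fold without IV_PZ replicate 2. Aa_G700850.h1 was at 3.02, 0.957, 2.51 and 2.74 TPM in IV_AZ_si and at 0 in IV_PZ, at least 43.8-fold higher (edgeR adjusted p = 4.31e-05), or 28.7-fold without IV_PZ replicate 2. For Aa_G129400.h1, at 1.09, 0.612, 0.594 and 0.464 TPM against 0, the bound was 35.3-fold (edgeR adjusted p = 1.39e-07), or 23.1-fold without IV_PZ replicate 2. Leaving out an IV_PZ library lowers these bounds only through the smaller depth.

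The 3 members called lower in IV_AZ_si were Aa_G146210.h1, Aa_G378690.h1 and Aa_G192010.h2. Aa_G146210.h1 was at 2.40, 1.32, 2.28 and 3.25 TPM in IV_AZ_si and at 4.08, 3.82 and 4.33 TPM in IV_PZ, without overlap, a log2 fold change of -0.84 ± 0.20 (SE; edgeR adjusted p = 0.00168). Aa_G378690.h1 was at 2.24, 3.20, 0.517 and 2.73 TPM against 4.18, 4.76 and 4.90 TPM, a log2 fold change of -1.11 ± 0.45 (SE; edgeR adjusted p = 0.0446). That call was lost without any 1 of 5 libraries, IV_PZ replicates 1, 2 and 3 and IV_AZ_si replicates 1 and 3, with adjusted p from 0.0630 to 0.0995; its alternatives spanned 0.0284 to 0.0995. It was also lost with only the 2 groups in the fit (adjusted p = 0.0785) and with TPM-scale size factors (adjusted p = 0.0524). The same held with the replicate number added to the edgeR fit as a block (adjusted p = 0.0573). Aa_G192010.h2, which shares reads, was at 0, 11.8 and 0 TPM in IV_PZ and at 0.0112 TPM or less in IV_AZ_si, so its call rests on IV_PZ replicate 2 and its libraries overlap. It is named because the count is small, after its values were seen.

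Between 4 and 5 weeks few members passed the test. In II_PZ against I_PZ, 2 members (2.47% of those tested) were called higher, against 9.33% of all tested targets, and 2 (2.47%) were called lower, against 6.78%. The 4 in both directions (4.94%) stand beside 16.1% of all tested targets. At an unadjusted p under 0.05 there were 17 members (21.0%), against 29.0% of all tested targets. The median log2 fold change of the tested members was -0.16, or -0.18 with members at 0 set to their bound, against 0.00 over all tested targets. Without I_PZ replicate 3 the number of members called was 3, against 3414 of 23904 tested targets. Without II_PZ replicate 3 it was 2, against 1932 of 23899.

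Aa_G19570.h1 rose from 2.64, 1.82 and 2.43 TPM in I_PZ to 8.18, 7.74 and 4.91 TPM in II_PZ, a log2 fold change of 1.68 ± 0.42 (SE; edgeR adjusted p = 0.0106). Without I_PZ replicate 2 the adjusted p was 0.0560, the highest over its alternatives, where the lowest was 0.00234. Aa_G129400.h1 rose from 0.864, 0.604 and 1.26 TPM to 2.61, 2.11 and 2.03 TPM, by 1.40 ± 0.29 on the log2 scale (SE; edgeR adjusted p = 0.00428). In both, all II_PZ libraries were above all I_PZ libraries.

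Aa_G494440.h1 fell from 31.2, 32.3 and 27.9 TPM to 18.9, 17.4 and 11.9 TPM, a log2 fold change of -0.84 ± 0.20 (SE; edgeR adjusted p = 0.00824), and without II_PZ replicate 3 the adjusted p was 0.0581, the highest of its alternatives (lowest 0.000428). Aa_G378690.h1 fell from 5.11, 2.80 and 5.05 TPM to 2.11, 1.49 and 0.505 TPM, a log2 fold change of -1.58 ± 0.52 (SE; edgeR adjusted p = 0.0465). Its call was lost without I_PZ replicate 1 or 3 and without II_PZ replicate 2 or 3, with adjusted p from 0.0913 to 0.200, against a lowest value of 0.0140 over all alternatives. It was also lost with only the 2 groups in the fit (adjusted p = 0.0626) and with the replicate number added as a block (adjusted p = 0.0705). No library of II_PZ reached the lowest of I_PZ for either member.

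Between 5 and 7 weeks many members declined in the perennial internode. In III_PZ against II_PZ, 44 members (54.3% of those tested) were called lower, against 31.1% of all tested targets, and 4 (4.94%) were called higher, against 26.6%. In both directions 48 members (59.3%) and 57.6% of all tested targets were called. The 44 include members with few counts outside IV_AZ_if. Aa_G681660.h1 had at most 7 in any such library and Aa_G277850.h1 at most 10, so nothing is read from their p-values. With only the 2 groups in the fit, 62 members passed the filter. Of these 38 (61.3%) were called lower, against 29.6% of all targets tested in that fit. The median log2 fold change of the tested members was -1.30, the same with members at 0 set to their bound, against -0.03 over all tested targets. Without III_PZ replicate 1, 35 of 82 tested members were called lower and 5 higher, against 6370 lower and 6302 higher of 23856 tested targets. When counts were scaled by their sum per base of effective length, the median of all tested targets moved to 0.22, the calls over all tested targets went from 6255 higher and 7306 lower to 8913 higher and 5182 lower, and the members were 37 lower and 8 higher.

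Aa_G298380.h1 was at 1.19, 1.22 and 0.155 TPM in II_PZ and without a count in III_PZ, which is at least 10.6-fold lower (edgeR adjusted p = 0.00171), or 6.78-fold without III_PZ replicate 3. Aa_G370290.h1 was at 0.799, 0.573 and 0.437 TPM and then at 0, at least 3.99-fold lower (edgeR adjusted p = 0.0116), or 2.54-fold without III_PZ replicate 3. Both were also at 0 in IV_PZ and present in IV_AZ_si. Neither passed the filter when only these 2 groups were used, so both tests rest on the inclusion of the other groups, IV_AZ_if among them. Aa_G370290.h1 had 3 to 5 counts in each II_PZ library. Outside IV_AZ_if no library held more than 8.77 counts of it, against 42 to 75.9 in IV_AZ_if. It thus reached the test through IV_AZ_if, and nothing is read from its p-value. Aa_G188900.h1 fell from 3.86, 2.97 and 2.01 TPM to 0.295, 0.0495 and 0 TPM, a log2 fold change of -4.91 ± 0.78 (SE; edgeR adjusted p = 3.39e-05), which was -6.86 without III_PZ replicate 1 and -4.25 without III_PZ replicate 3.

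The 4 members called higher ran against the set. Aa_G819160.h1 rose from 0.717, 0.413 and 0 TPM to 3.06, 4.20 and 4.68 TPM, by 3.17 ± 0.68 on the log2 scale (SE; edgeR adjusted p = 0.000667), or by 4.00 without II_PZ replicate 1. Aa_G75110.h1 rose from 0.239, 0.171 and 0.218 TPM to 0.936, 1.65 and 1.69 TPM, by 2.49 ± 0.44 (SE; edgeR adjusted p = 0.000171). For both, every III_PZ library was above every II_PZ library.

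Aa_G173260.h1, the most abundant member near the inflorescence, went from 20.0, 7.69 and 28.6 TPM to 106, 90.4 and 113 TPM, a log2 fold change of 2.19 ± 0.77 (SE; edgeR adjusted p = 0.0223). The call was lost without II_PZ replicate 1 (adjusted p = 0.0533), without II_PZ replicate 2 (adjusted p = 0.0910) and with limma on TPM (adjusted p = 0.0767 to 0.268), and over all alternatives the adjusted p ran from 0.00443 to 0.268. The last of the 4, Aa_G499340.h1, was at 4.32, 6.13 and 6.35 TPM in II_PZ and at 15.1, 22.0 and 20.3 TPM in III_PZ, a log2 fold change of 1.51 ± 0.15 (SE; edgeR adjusted p = 2.13e-07). It is named for completeness, after its values were seen.

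From 7 to 30 weeks further members were lower in the perennial internode. In IV_PZ against III_PZ, 28 members (34.6% of those tested) were called lower, against 29.3% of all tested targets, and 5 (6.17%) were called higher, against 27.3%. In both directions 33 members (40.7%) and 56.5% of all tested targets were called. With only the 2 groups in the fit, 18 of 47 tested members were called lower (38.3%, against 31.0% of all tested targets), and with limma on log2(TPM + 1) 20 of 91 (22.0%, against 31.0%). The share of members called lower was thus above or below that of all tested targets depending on the fit, and nothing is read from it. The median log2 fold change of the tested members was -0.80, the same with members at 0 set to their bound, against 0.00 over all tested targets. Without III_PZ replicate 1, 26 of 82 tested members were called lower and 5 higher, against 6687 lower and 5428 higher of 23856 tested targets.

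Aa_G129400.h1 fell from 1.75, 1.49 and 1.78 TPM in III_PZ to no count in IV_PZ, at least 91.2-fold (edgeR adjusted p = 1.32e-08), or 59.8-fold without IV_PZ replicate 2. Aa_G75110.h1 fell from 0.936, 1.65 and 1.69 TPM to 0, at least 34.8-fold (edgeR adjusted p = 4.15e-07), or 22.8-fold without IV_PZ replicate 2. Aa_G581100.h1 fell from 1.29, 3.61 and 3.15 TPM to 0, at least 33.3-fold (edgeR adjusted p = 0.00021), or 21.9-fold without IV_PZ replicate 2. For Aa_G129400.h1 and Aa_G75110.h1 the loss followed a rise at an earlier step, from 4 to 5 weeks in the one and from 5 to 7 weeks in the other.

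Of the 5 members called higher in IV_PZ, Aa_G70660.h1 had the largest change, from 0.421, 0.283 and 0.123 TPM to 0.599, 1.89 and 1.11 TPM, a log2 fold change of 2.19 ± 0.67 (SE; edgeR adjusted p = 0.00946). The call was lost without III_PZ replicate 3 (adjusted p = 0.0523) and without IV_PZ replicate 2 (adjusted p = 0.0581), the highest over its alternatives, where the lowest was 0.00303. Aa_G220420.h1 went from 0.480, 0.132 and 0.0192 TPM to 1.21, 0.662 and 0.529 TPM, by 2.03 ± 0.60 (SE; edgeR adjusted p = 0.00769), and by 3.48 without III_PZ replicate 1 and 1.44 without III_PZ replicate 3. It was not called with only the 2 groups in the fit (adjusted p = 0.0581) or with limma on unfiltered TPM (adjusted p = 0.0501), while its lowest adjusted p was 0.000303.

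Aa_G2300.h1 went from 0.490, 0.329 and 0.316 TPM to 1.09, 0.661 and 1.23 TPM, by 1.48 ± 0.47 (SE; edgeR adjusted p = 0.0119). Its call was lost without III_PZ replicate 3 (adjusted p = 0.0505), without IV_PZ replicate 3 (adjusted p = 0.0557) and with limma on TPM (adjusted p = 0.117 and 0.141), and the lowest over its alternatives was 0.00332. The remaining 2, named because the count is small, were Aa_G16020.h1, from 1.33, 1.69 and 1.68 TPM to 3.48, 2.42 and 3.37 TPM, and Aa_G230760.h1, from 5.72, 4.02 and 4.70 TPM to 8.65, 8.5 and 8.26 TPM. All 5 stayed below their IV_AZ_if level, which for Aa_G230760.h1 was 32.1, 33.0 and 34.6 TPM.

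**Figure D5:**
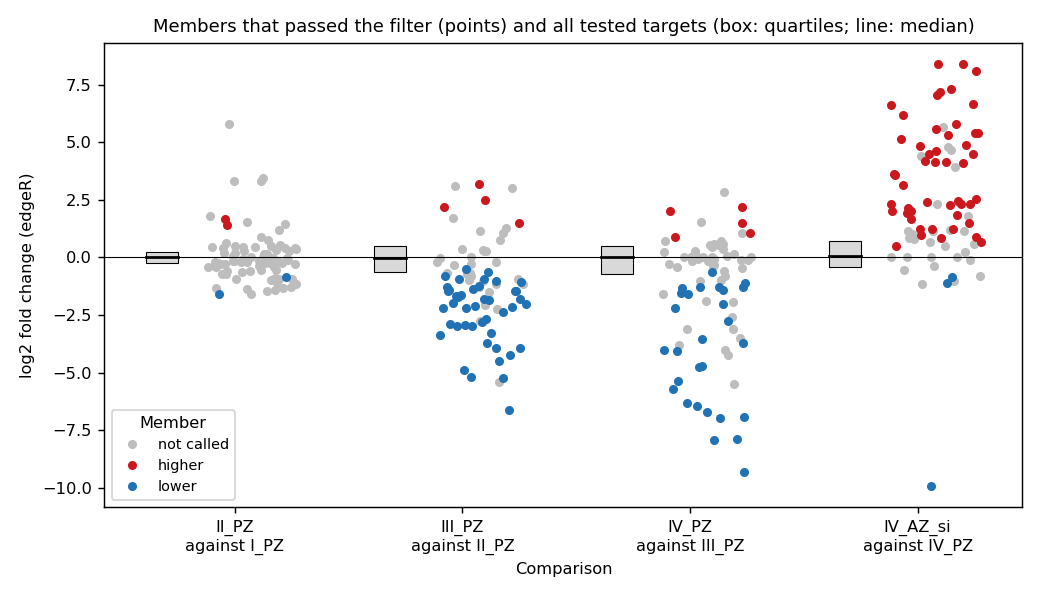
Log2 fold changes from edgeR in the 4 comparisons without IV_AZ_if, with 1 point per member that passed the filter, coloured by its call, beside a box for all 23528 tested targets with quartiles and median. The points lie mostly above 0 for IV_AZ_si against IV_PZ and mostly below 0 for III_PZ against II_PZ, and fitted values of members with no count in 1 group depend on the prior count and show direction only.

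In comparisons that share no library, 29 members were called both lower in III_PZ than in II_PZ and higher in IV_AZ_si than in IV_PZ. That is 65.9% of the 44 and 58.0% of the 50. Over all tested targets the corresponding overlap of 4052 was 55.5% of those lower at 7 weeks and 54.8% of those higher in the annual zone. Calls higher in IV_AZ_si covered 61.7% of the tested members, against 31.4% of all tested targets. Calls lower in III_PZ covered 54.3% and 31.1%. The overlap of the members was thus close to their own shares of calls, whereas over all tested targets it was well above them. The higher percentages of the members are therefore not read as a closer link between the comparisons.

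The 2 later steps of the perennial zone share the III_PZ libraries and are given side by side. Lower calls came at both steps for 13 members (16.0% of those tested, against 12.5% of all tested targets), at the first only for 31 (38.3%, against 18.5%) and at the second only for 15 (18.5%, against 16.7%). None of the 4 comparisons called 9 of the tested members (11.1%, against 15.8%), and 12 members had not passed the filter. The members are thus not uniform outside IV_AZ_if: some, such as Aa_G451470.h1, had counts in young perennial internodes and none in the other 30-week internodes, some, such as Aa_G648160.h1, were present in every sample, and a few, such as Aa_G819160.h1, were higher in the older than in the younger perennial internode.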

How the data were processed

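RNA from whole internodes was made into stranded TruSeq mRNA libraries, per the labels' protocols. The submitters' processing notes name bcl2fastq and kallisto. Versions and the transcript reference stay not given in the sources used here. The deposited library files list, for 34220 targets and per the file headers, the length, effective length, estimated count and TPM, and the authors' series table repeats the TPM of 30158 of them. TPM is scaled to a fixed total per library, so a few abundant transcripts can move all other values.

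The members and lists were chosen with earlier results of these data known. Members were found from the series table. For the 4 comparisons without IV_AZ_if, estimated counts (expected counts, as deposited) were first rounded. A single fit of the 19 libraries by group used TMM scaling, the default low-count filter and edgeR 4.0.16 (quasi-likelihood test, run with R 4.3.3), with Benjamini-Hochberg adjustment. Standard errors come from the test statistic. The procedure was tested on simulated data. Reads count as shared where an estimated count lay more than 0.001 away from a whole number in any library. Bounds use a floor of 3 counts, summed over the group, and cover counting error only. The labels call the libraries biological replicates of 12 plants.

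Members named were the 10 with the largest gap, the 6 with the highest IV_AZ_if mean, those without a count elsewhere, those at the limits, the 3 steadiest and 3 most variable over IV_AZ_if, the 2 most abundant for each next-highest group, the 3 highest in I_PZ replicate 3, and for each comparison the 3 largest rises and falls among members called whose libraries did not overlap. Lists of floral, meristem, cuticle, expansin and secondary wall genes could not be matched to identifiers and were not used.

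Alternatives were another pseudocount, medians, TMM-scaled CPM, DESeq2 1.42.0, RLE and TPM-scale size factors, no low-count filter, fits of the 2 groups alone, a replicate block, log2 TPM in limma 3.58.1 (trend) with a pseudocount of 1 or 0.1, and each replicate left out. Restricting the members to those with at least 30 counts or with no shared reads was chosen after seeing the data.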

Additional observations from a re-analysis of the deposited data

Results flagged for a closer look

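In the 4 libraries of IV_AZ_si, 2 of the 36 members named in the text whose values differ there had 1 library far above the others. The gap from that library to the next, divided by the range of the group, exceeded Dixon's limit for 4 samples. For values with a normal spread chance gives about 1 such case in 20 groups. That rate need not hold for levels near 0 on few counts. For Aa_G370290.h1 the ratio was 0.859, with IV_AZ_si replicate 3 at 1.31 TPM and replicates 1, 2 and 4 at 0.173, 0 and 0.184 TPM. For Aa_G581100.h1 the ratio was 0.894, with replicate 1 at 0.852 TPM and replicates 2, 3 and 4 at 0.0901, 0 and 0 TPM. The high library differed between the 2 members and both rest on few counts.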

How the results depend on the processing

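The choice of members depended on the pseudocount and the scaling. With a pseudocount of 0.1 in place of 1, the rule chose 61 targets, of which 57 were among the 93, and with TMM-scaled CPM 85 (62 shared, 31 lost and 23 added). With all 3 I_PZ libraries it chose 95 (91 shared) and with medians 84 (73 shared). Leaving out single replicates gave 85 to 107. Members called for II_PZ against I_PZ numbered 8 with DESeq2 and 8 with limma on log2(TPM + 1), against 4 in the main fit. Limma gave 7 on log2(TPM + 0.1) and 7 on log2(TPM + 1) without its filter. With edgeR the number was 4 without the low-count filter and 2 without II_PZ replicate 3. Over all tested targets these fits called 4467, 3937, 3637, 3919, 3463 and 1932 in this order, against 3789. Leaving out single replicates gave 48 to 56 members for IV_AZ_si against IV_PZ, 2 to 6 for II_PZ against I_PZ, 39 to 47 for III_PZ against II_PZ and 29 to 34 for IV_PZ against III_PZ. Over all tested targets these fits called 12438 to 13162, 1932 to 3686, 12396 to 13339 and 11945 to 12364. With only the 2 groups in the fit, 56, 63, 62 and 47 members passed the filter in this order of comparisons. The others tested in the main fit had passed it only with further groups included. Of those tested, 40, 4, 6 and 4 were called higher and 1, 1, 38 and 18 lower. Over all targets tested in these fits, 6580 of 22010, 2132 of 21396, 6409 of 21942 and 6023 of 21760 were called higher. Called lower were 6061, 1870, 6498 and 6735. The cause of these changes was not tested. Over the 21 results for members named by comparison, 327 alternative values kept direction and call, 29 kept the direction without the call and 0 reversed.

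A replicate block gave 50, 3, 48 and 34 members called in these 4 comparisons, against 53, 4, 48 and 33. Over all 23528 tested targets it called 12348, 3469, 13309 and 12991, against 13434, 3789, 13561 and 13304. Under the block Aa_G378690.h1 was called neither in IV_AZ_si against IV_PZ (edgeR adjusted p = 0.0573) nor in II_PZ against I_PZ (edgeR adjusted p = 0.0705). Correlations of the deviations of same-numbered libraries were between -0.02 and 0.23, and not all over 0.1 in any comparison. In II_PZ against I_PZ they were 0.04, 0.16 and 0.23. The numbers were therefore not taken as pairs, and the labels do not say whether same-numbered libraries share plants. Depth limits the 9 members under 30 counts and all levels near 0 in IV_PZ.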

Other observations

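The library files hold targets that the series table does not, and 6 of these also met the rule. Aa_G642350.h1, Aa_G642350.h2 and Aa_G642350.h3, each of 1197 bases, had identical estimated counts in every library, so reads could not be assigned to one of them and the 3 are a single observation. Each stood at 35.2, 37.7 and 40.1 TPM in IV_AZ_if, with a gap of 4.78, larger than that of all but 2 of the 93 members. Their next group mean was 0.405 TPM, and IV_PZ had no count. Aa_G605560.h1 and Aa_G605560.h2, of 1074 bases, were likewise identical, at 16.6, 14 and 12.4 TPM each, with a gap of 1.65. Aa_G1066880.h3, of 312 bases, just met the limit with a gap of 1.00, and its IV_AZ_if libraries, at 9.15, 7.74 and 24.0 TPM, overlapped IV_AZ_si, where replicate 3 was at 9.47 TPM.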
